A study of Mus musculus with 12 samples.

Results

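A set of 10 genes of protein folding in the endoplasmic reticulum (ER) is described here: the chaperones Hspa5, Hsp90b1, Calr and Canx, the cochaperones Dnajb9 and Sdf2l1, the disulfide isomerase Pdia4, the disulfide oxidase Ero1a, and the stress response genes Herpud1 and Xbp1. They were chosen by symbol or older alias in the annotation of the Affymetrix Mouse430_2 array (Ero1a is listed there as Ero1l), which gave 24 of the 45101 probe sets in the table. Of these, 23 had a mean signal of at least 100 over the 12 arrays and were tested. The remaining probe set, Pdia4 1450620_at, had a mean of 28.1 and counts as low.

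The RNA came from 6 lines of primary mouse embryonic fibroblasts (MEFs), taken from embryos at e14.5, with 1 array per culture. The 3 triCH1 lines had lost the CH1 domain from 3 of the 4 alleles of Crebbp and Ep300, the genes of the transcriptional coactivators CBP and p300, and the other allele was a floxed (conditional knockout) allele that Cre recombinase can remove. This was Crebbp in triCH1flox1 and Ep300 in triCH1flox2_1 and triCH1flox2_2. The 3 control lines carried 1 floxed allele, with no CH1 deletion named: Crebbp in flox1, and Ep300 in flox2_1 and flox2_2. All 6 lines were infected with a Cre adenovirus at passage 3 and then expanded at least 100-fold, so no line was free of Cre, and the control lines were not wild type. How completely Cre removed the floxed alleles was not tested here. Subconfluent cultures were held for 6 h in hypoxia (0.1% oxygen) or normoxia (21% oxygen), at 37 °C with 5% carbon dioxide. This gave triCH1 hypoxia, triCH1 normoxia, control hypoxia and control normoxia groups with 3 arrays each, and the 3 arrays of a group came from 3 different lines. The labels do not say whether the lines came from separate embryos, so p-values measure the spread between lines, and the number of arrays limits the precision.

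The ER lumen is where secreted and membrane proteins fold. Hspa5 and Hsp90b1 bind unfolded chains, calnexin and calreticulin hold glycoproteins, and Ero1a passes electrons from protein disulfide isomerases to oxygen as disulfide bonds form. When unfolded proteins accumulate, the sensors ATF6, IRE1 and PERK start the unfolded protein response. ATF6 and the spliced form of Xbp1 act on the ER stress response element (ERSE) in chaperone promoters, and PERK acts through Atf4 and its target Ddit3, which encodes CHOP. One route of the response to hypoxia runs through HIF, which binds a short core sequence near its targets, and Ero1a is a known HIF target. The CH1 domain is the part of CBP and p300 that binds HIF-1α.

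Both kinds of element were searched for on both strands in RefSeq promoter windows of GRCm38.p6 (300 bases, from 250 before to 50 after the annotated start), where all 10 genes had a window. The full ERSE, spelled CCAAT, any 9 bases and CCACG, was present in 4 of the 10 windows and in 0.119% of all 32851 windows. The shorter ERSE-II, spelled ATTGG, any 1 base and CCACG, was in 1 of the 10 and in 0.0365% of all windows. They are shown because 5 of the 10 genes share them. Capitals mark the fixed letters, and each element is turned to read from its CCAAT or ATTGG side.
Hspa5 (chr2:34772025-34772043, same strand as the gene): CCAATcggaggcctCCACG
Hsp90b1 (chr10:86705638-86705656, same strand): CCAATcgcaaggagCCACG
Hsp90b1 (chr10:86705533-86705551, opposite strand): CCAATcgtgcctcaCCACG
Calr (chr8:84847075-84847093, opposite strand): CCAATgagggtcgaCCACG
Canx (chr11:50325800-50325818, same strand): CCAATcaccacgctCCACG
Herpud1 (chr8:94386377-94386387, same strand, ERSE-II): ATTGGgCCACG

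In Hspa5 the ERSE lay 65 to 47 bases before the start. The windows of Dnajb9, Xbp1, Sdf2l1, Pdia4 and Ero1a had neither form. The XBP1 element TGACGTGG was in 0 of the 10 windows and in 0.676% of all windows, and TTGCATCA, a form of the element that ATF4 and CHOP share with C/EBP factors, was in that of Herpud1 and in 0.895% of all windows. The Ero1a window held the HIF core ACGTG, read on the opposite strand, 63 to 59 bases before the start, and GCGTG starting 128 and 88 bases before it. These short cores are common: ACGTG was in 19.6% of all windows and 5 of the 10, and GCGTG in 32.4% of all windows and 7 of the 10, some of them overlapping an ERSE. Hspa5 was among both, with ACGTG 155 to 151 bases before its start. The 250 bases before the start of Ero1a (chr14:45318573-45318822, minus strand) and of Hspa5 (chr2:34771840-34772089, plus strand) are given 5′ to 3′ on the gene's strand, because these genes show the main contrast in the data below. Capitals mark HIF cores in both genes and the ERSE in Hspa5, and a match describes the letters, not a site in use.
Ero1a: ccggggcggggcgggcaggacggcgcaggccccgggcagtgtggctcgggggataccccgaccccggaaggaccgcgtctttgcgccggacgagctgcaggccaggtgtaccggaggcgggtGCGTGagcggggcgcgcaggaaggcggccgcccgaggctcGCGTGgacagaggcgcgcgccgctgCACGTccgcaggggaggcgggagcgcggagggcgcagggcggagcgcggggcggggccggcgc
Hspa5: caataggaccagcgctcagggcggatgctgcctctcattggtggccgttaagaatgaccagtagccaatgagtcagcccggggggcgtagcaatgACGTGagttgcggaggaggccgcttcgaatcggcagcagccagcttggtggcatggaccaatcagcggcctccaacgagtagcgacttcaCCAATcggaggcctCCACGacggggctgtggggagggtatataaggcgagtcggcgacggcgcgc

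Median signals of the arrays were 57.3 to 76.3 (scaled units of the authors), and scale factors 2.57 to 4.28. The 3′/5′ signal ratio of Gapdh, a control for RNA quality, ranged from 0.737 to 0.812. All 8 fibroblast markers had a mean of at least 100, among them Vim at 35593.7 to 50587.3, while Pdgfra and Dcn were weak with means of 218.3 and 228.8. All 4 endothelial markers were low. Of 4 markers each, 2 reached a mean of 100 for leukocytes, 2 for epithelium, 1 for skeletal muscle (Acta1) and 3 for neural cells. In bulk RNA of this kind, fewer cells that express a gene and less RNA per cell cannot be told apart.

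Ero1a rose in hypoxia in both line types, in every line and in all 3 of its probe sets. No other of the 10 genes was called in any comparison of the main fit. On probe set 1419029_at, the triCH1 lines gave signals of 4310.1 (triCH1flox2_1), 4956.7 (triCH1flox1) and 3286.4 (triCH1flox2_2) in hypoxia, against 1627.8, 1935.2 and 1416.9 in normoxia. Values of 3 lines are given in this order throughout, triCH1flox2_1, triCH1flox1 and triCH1flox2_2 or flox2_1, flox1 and flox2_2. The control lines gave 7528.8 (flox2_1), 7933.4 (flox1) and 7594.9 (flox2_2) in hypoxia, against 2352.2, 2686.4 and 1949.4 in normoxia. Within each line type the hypoxia arrays lay wholly above the normoxia arrays, as they did for 5.49% of all genes tested in triCH1 lines and 5.16% in control lines. The group means were 4184 ± 842.2 in triCH1 hypoxia, 1660 ± 260.6 in triCH1 normoxia, 7686 ± 217 in control hypoxia and 2329 ± 369 in control normoxia (SD, n = 3 each).

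Tests were made with limma on log2(signal + 20), with Benjamini-Hochberg adjustment over all 18903 probe sets tested, and a probe set was called at an adjusted p under 0.05. Ero1a (1419029_at) rose by 1.31 ± 0.18 (SE) on the log2 scale in the triCH1 lines (2.49-fold, adjusted p = 0.00144) and by 1.73 ± 0.18 in the control lines (3.31-fold, adjusted p = 7.54e-05). The mean response of both line types was 1.52 ± 0.13 (2.87-fold, 95% interval 1.25 to 1.79, adjusted p = 4.33e-06), with a higher signal in 6 of 6 lines. The other 2 probe sets, annotated to the same source sequence, also had every hypoxia array above every normoxia array. At 1449324_at the triCH1 lines gave 3297.7, 4771.6 and 4240.8 in hypoxia, against 1058.9, 916.4 and 1275.9 in normoxia, and the control lines 7293.5, 6685 and 7922.7 in hypoxia, against 1696.2, 1320.1 and 1078.6 in normoxia. At 1419030_at they were 2786.3, 3288 and 2691.8 in triCH1 hypoxia, against 811.6, 642 and 948.6 in triCH1 normoxia, and 5752.6, 5298.2 and 5746.2 in control hypoxia, against 1395.4, 1055.3 and 731.8 in control normoxia. The mean responses there were 2.16 ± 0.14 and 2.14 ± 0.15, so the 3 probe sets ran the same way in hypoxia and differed in size. After group means were removed, 1419029_at did not follow the others, with correlations of -0.02 (1449324_at) and 0.17 (1419030_at). Those 2 correlated at 0.87 with each other. The 3 Ero1a probe sets were the only members called, 3 of 23 probe sets in each case. The background of called probe sets was 0.635% in triCH1 lines, 0.831% in control lines and 1.75% for the mean response. By gene, 1 of 10 was called, where 0.716%, 0.925% and 1.63% of all genes were called higher, in that order.

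**Figure D1:**
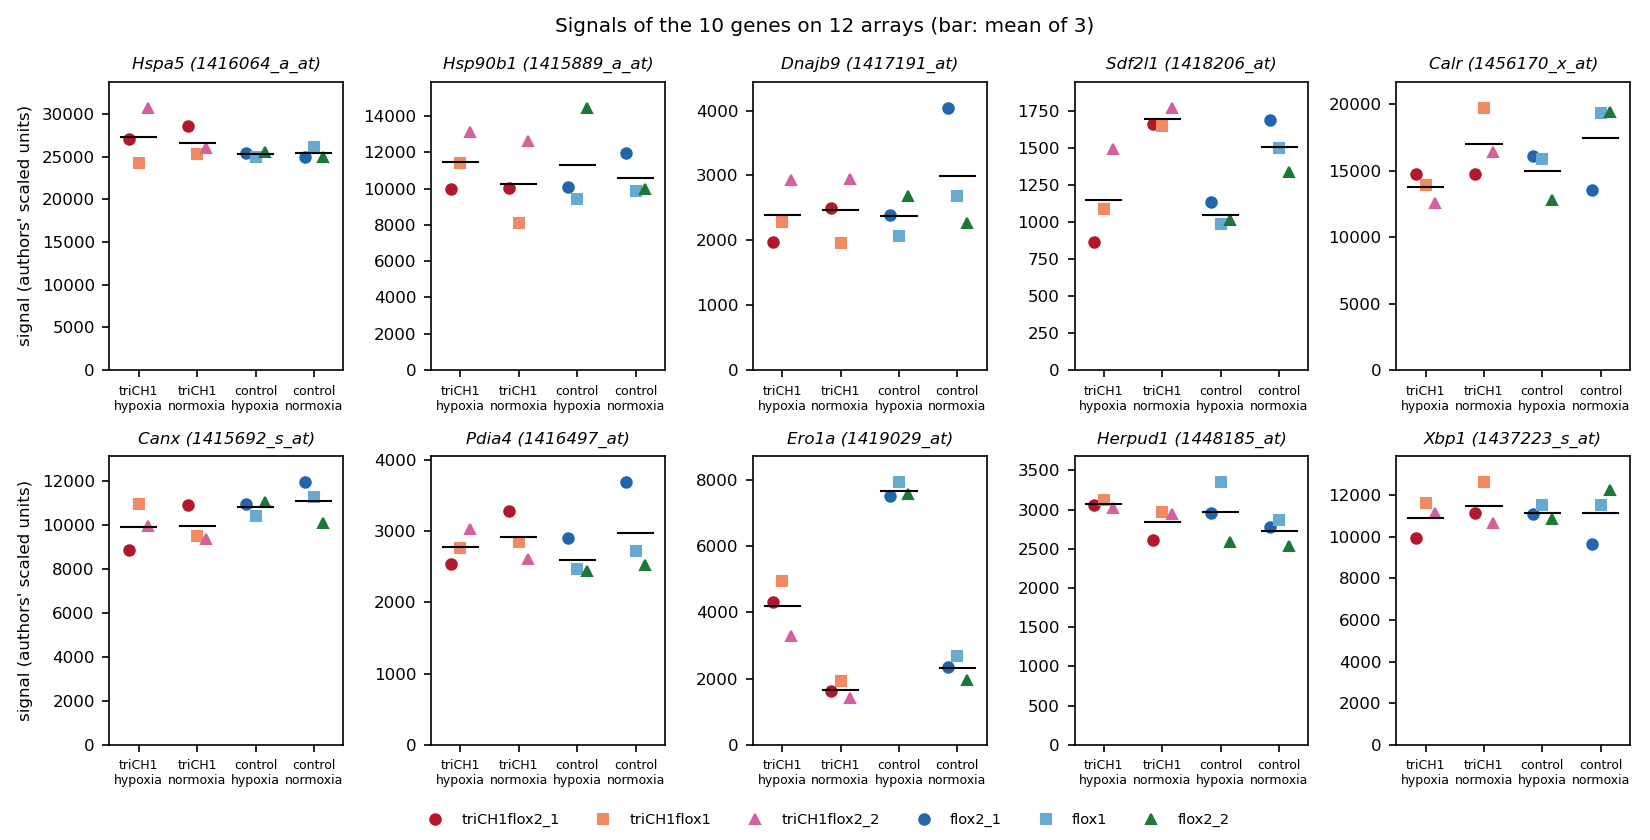
Signal of each gene (y axis, authors' scaled units, linear and starting at 0) in triCH1 hypoxia, triCH1 normoxia, control hypoxia and control normoxia (x axis). Each point is 1 array, coloured by line, and each bar is the mean of 3 arrays. In Ero1a the hypoxia arrays stand above the normoxia arrays in both line types, in Sdf2l1 below them, and in the other 8 genes the points of the 4 groups largely share 1 range.

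**Figure D2:**
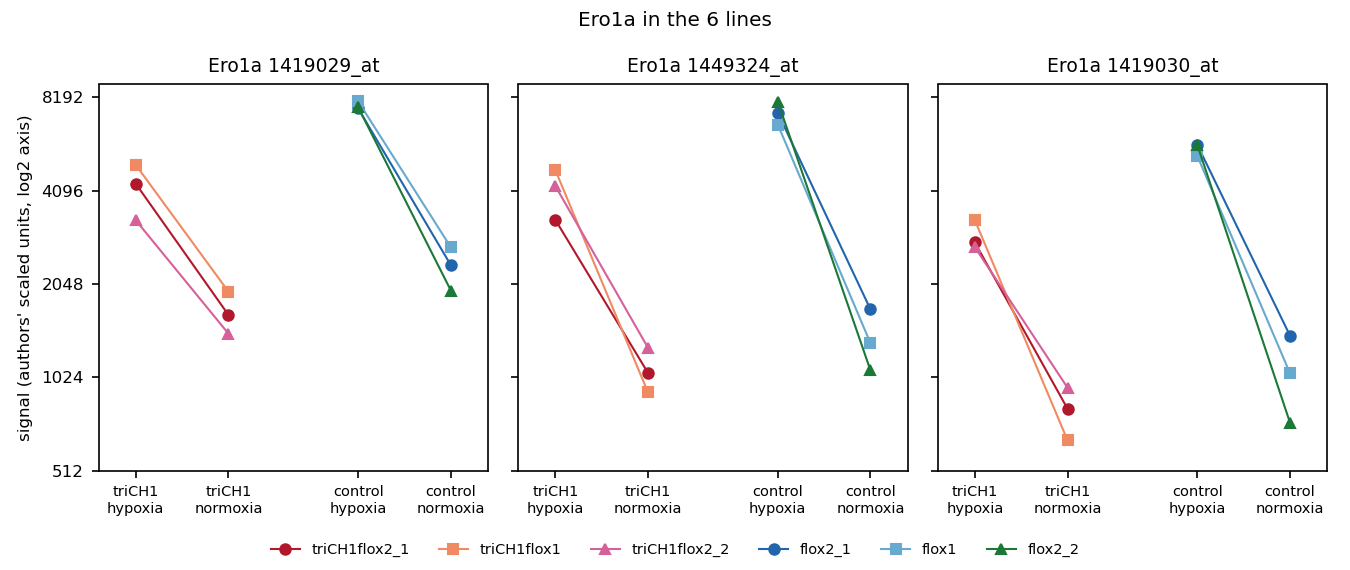
Signal of the 3 Ero1a probe sets (y axis, authors' scaled units on a log2 axis) in hypoxia and normoxia, with a line joining the arrays of each of the 3 triCH1 and 3 control lines. Every joined pair is higher in hypoxia, and in each panel the 3 triCH1 hypoxia points lie below the 3 control hypoxia points.

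The CH1 comparison asks whether loss of the HIF-binding domain alters these levels. In hypoxia the triCH1-minus-control difference of Ero1a was negative in all 3 probe sets: -0.89 ± 0.18 on the log2 scale at 1419029_at (0.538-fold, adjusted p = 0.112), -0.84 at 1449324_at and -0.94 at 1419030_at (adjusted p = 0.19 and 0.185). None passed the adjusted threshold in this fit, although all 3 had an unadjusted p under 0.05, and the background of called probe sets was 0.0741%. The call depended on the fit: with the floxed gene as a covariate 1419029_at had an adjusted p of 0.0141, with 1 value per gene 0.0445, and without line triCH1flox1 0.0164. These fits also called more features in all, at 0.682% of probe sets, 0.199% of genes and 1.46% of probe sets in that order. Over the omission of each array and each line, its difference kept its sign, between -1.03 and -0.73, with adjusted p between 0.0164 and 0.56. The triCH1 and control signals in hypoxia did not overlap in any of the 3 probe sets, and exact permutation of the line labels (20 assignments, two-sided) gave p = 0.1 for each, the smallest p this design allows. Of all genes tested, 6.53% had triCH1 hypoxia signals wholly below those of control hypoxia. The summed signal of the 4 skeletal muscle markers, nearly all of it Acta1, was also apart, at 10306 to 13260 in triCH1 hypoxia and 15243 to 17006 in control hypoxia, and overlapped in normoxia. Its part in the Ero1a difference was not tested.

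In normoxia the difference between triCH1 and control lines was smaller, -0.48 ± 0.18 at 1419029_at (adjusted p = 0.528), where the groups did not overlap, against a background of 4.67% of genes wholly lower. At the other 2 probe sets the normoxia groups overlapped. The difference between the responses was -0.41 ± 0.25 (95% interval -0.95 to 0.13, adjusted p = 1) at 1419029_at, -0.53 ± 0.28 at 1449324_at and -0.57 ± 0.30 at 1419030_at, and 0% of all probe sets were called in this comparison, with 0 of the 23 at an unadjusted p under 0.05. With each line as a replicate block, which compares the responses within lines, the interval at 1419029_at was -0.81 to -0.01 (unadjusted p = 0.0432, the only 1 of the 23 under 0.05, adjusted p = 1). By line, the response at 1419029_at was 1.39, 1.35 and 1.20 in triCH1flox2_1, triCH1flox1 and triCH1flox2_2, against 1.67, 1.56 and 1.95 in flox2_1, flox1 and flox2_2. The 2 sets of lines do not overlap there (exact p = 0.1), but at the other probe sets triCH1flox1, with 2.36 and 2.32, exceeded flox2_1, with 2.09 and 2.03 (exact p = 0.3 for each). The rise of Ero1a was thus called in lines with CH1 deleted from 3 alleles, and whether the interval of the difference at 1419029_at included 0 depended on the block.

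Sdf2l1, which encodes a partner of the ER Hsp40 chaperones, was the only other member whose groups separated in both line types. Its signals were 863.1, 1088.2 and 1492.9 in triCH1 hypoxia (triCH1flox2_1, triCH1flox1, triCH1flox2_2), against 1664.8, 1651 and 1774 in triCH1 normoxia. They were 1139, 984.5 and 1014.5 in control hypoxia (flox2_1, flox1, flox2_2), against 1692.3, 1502.9 and 1338.3 in control normoxia. Every hypoxia array was thus lower than each normoxia array of its line type, and the gene was lower in 6 of 6 lines, as were 8.01% of all genes tested. The share of genes with hypoxia wholly below normoxia was 6.71% in triCH1 lines and 7.4% in control lines.

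The mean Sdf2l1 response was -0.55 ± 0.13 (0.681-fold, 95% interval -0.84 to -0.27), and its adjusted p of 0.0551 missed the threshold. With each line as a replicate block, which the shared line names allow, the adjusted p was 0.0136, in a fit that called 3.67% of all probe sets. It also fell under 0.05 with a filter at a mean signal of 200 (0.0488), a robust fit (0.0499), the floxed gene as a covariate (0.0363) and 1 value per gene (0.0369). In that order, these 4 fits called 314 of 15114, 341 of 18903 and 503 of 18903 probe sets, and 240 of 10059 genes. The main fit called 331 of 18903 probe sets. The adjusted p of Sdf2l1 was 0.0566 and 0.0523 with pseudocounts of 1 and 100, and further above 0.05 with no filter (0.0718), quantile normalization (0.0772), median centring (0.0779) and no variance trend (0.0795). Over omissions it lay between 0.0134 and 0.262, and Sdf2l1 was called in 2 of 18. By line type the values were -0.59 ± 0.19 in triCH1 lines (adjusted p = 0.412) and -0.52 ± 0.19 in control lines (adjusted p = 0.549). The lines ran from -0.93 in triCH1flox2_1 to -0.25 in triCH1flox2_2.

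**Figure D3:**
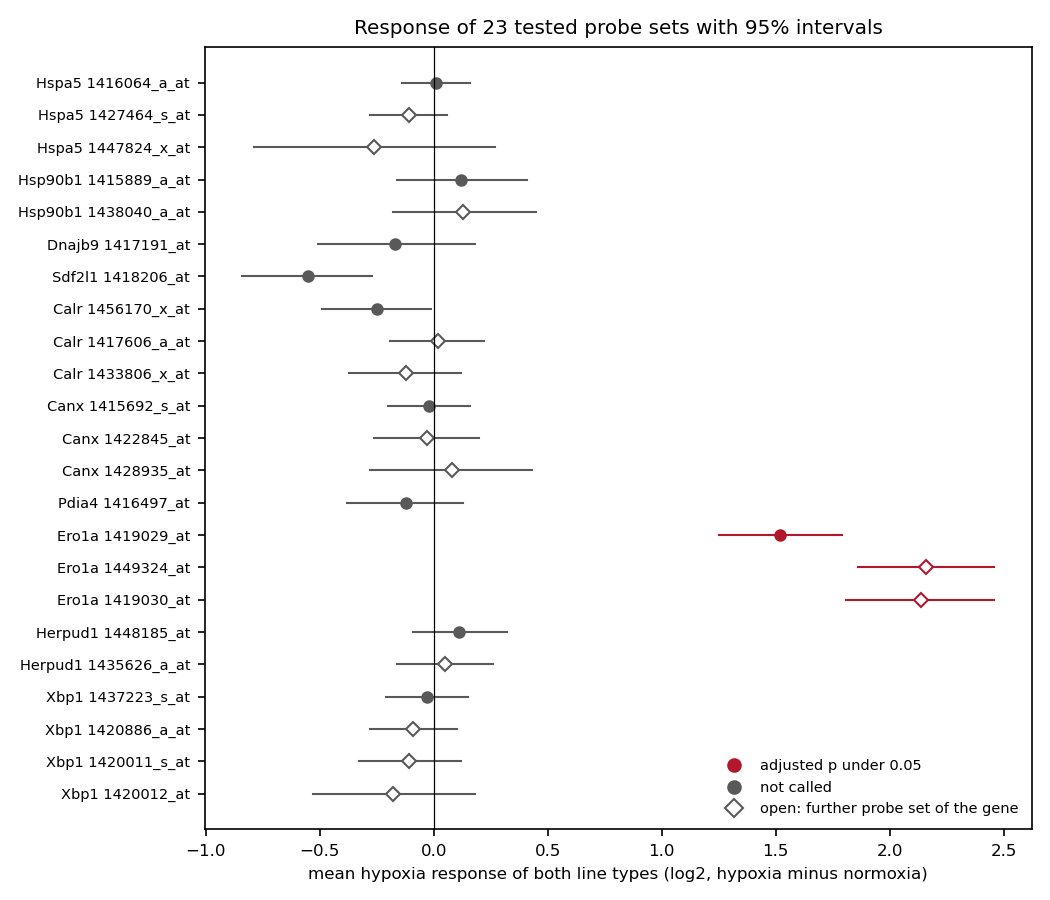
Mean hypoxia response of both line types (x axis, log2, hypoxia minus normoxia) of the 23 tested probe sets, with 95% intervals from limma. Filled circles are the probe set with the highest mean of each gene and open diamonds its other probe sets. The 3 Ero1a probe sets lie between 1.52 and 2.16, the interval of Sdf2l1 ends at -0.27, and of the other intervals only that of Calr 1456170_x_at, which ends at -0.01, leaves out 0.

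The lumenal chaperones Hspa5 (also known as BiP) and Hsp90b1 (also known as GRP94) were not called. Hspa5 (1416064_a_at) had signals of 27004.9, 24195.4 and 30722.3 in triCH1 hypoxia, against 28575, 25317.7 and 25954.4 in triCH1 normoxia. In control lines it had 25399.4, 24932.2 and 25496.1 in hypoxia, against 24980.1, 26171.2 and 25001.7 in normoxia. The groups overlapped throughout, and the mean response was 0.01 ± 0.07 with a 95% interval of 0.909- to 1.12-fold. The other Hspa5 probe sets gave -0.11 ± 0.08 (1427464_s_at) and -0.26 ± 0.25 (1447824_x_at). Hsp90b1 (1415889_a_at) had 9956.3, 11406.3 and 13127.1 in triCH1 hypoxia, against 10040.5, 8128 and 12627.8 in triCH1 normoxia, and 10069.6, 9404.4 and 14462.6 in control hypoxia, against 11956.3, 9889.9 and 9977.2 in control normoxia. Its mean response was 0.12 ± 0.13 (1438040_a_at, 0.13 ± 0.15), and the lines disagreed in sign, from -0.25 in flox2_1 to 0.53 in flox2_2.

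The lectin chaperones calnexin, in the ER membrane, and calreticulin, in the lumen, were not called either. Canx (1415692_s_at) ranged from 8867.3 to 10970.7 in triCH1 hypoxia, 9384.1 to 10907.9 in triCH1 normoxia, 10395.8 to 11058.2 in control hypoxia and 10095.7 to 11941.5 in control normoxia. It had a mean response of -0.02 ± 0.08, with -0.03 and 0.08 at its other probe sets. Calr (1456170_x_at) had 14774.1, 13940.1 and 12536.8 in triCH1 hypoxia, against 14784, 19740.5 and 16425.4 in triCH1 normoxia. These groups were just apart, as were 6.71% of all genes. In control lines Calr had 16133.5, 15872 and 12825.2 in hypoxia, against 13541.1, 19313.3 and 19439.2 in normoxia. Its mean response at this probe set was -0.25 ± 0.11 (unadjusted p = 0.0399, adjusted p = 0.41), but 1417606_a_at gave 0.02 ± 0.09 and 1433806_x_at gave -0.12 ± 0.11. The probe sets of Calr therefore disagreed, and flox2_1, at 0.25, ran against the other control lines at 1456170_x_at.

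Among the remaining folding genes, Dnajb9, an ER Hsp40 cochaperone of Hspa5, had 1970.5, 2286.2 and 2929.4 in triCH1 hypoxia, against 2502, 1953.2 and 2937.9 in triCH1 normoxia. In control lines it had 2386.6, 2060 and 2680.9 in hypoxia, against 4044.4, 2686.1 and 2264.4 in normoxia. The groups overlapped, with a mean response of -0.17 ± 0.16, and flox2_1 had both the highest normoxia signal and the lowest response, -0.76. Pdia4 (1416497_at), a protein disulfide isomerase, ranged from 2537.2 to 3035.8 in triCH1 hypoxia, 2611.1 to 3288.4 in triCH1 normoxia, 2434.7 to 2899.9 in control hypoxia and 2527.9 to 3684.3 in control normoxia. It had a mean response of -0.12 ± 0.12, lower in 5 of 6 lines, with triCH1flox2_2 at 0.22 as the exception. The adjusted p was 0.779 for Dnajb9 and 0.78 for Pdia4.

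The stress response genes were not called either. Herpud1, which encodes an ER membrane protein of the degradation machinery, was higher in 6 of 6 lines at 1448185_at, as were 5.42% of all genes, but only by 0.11 ± 0.10 (adjusted p = 0.746). At this probe set the triCH1 hypoxia signals of 3061.8, 3115.3 and 3023.6 lay just above the triCH1 normoxia signals of 2613.1, 2966.8 and 2940.1, with 5.49% of all genes wholly higher in triCH1 lines, while the control groups overlapped. Its other probe set, 1435626_a_at, gave 0.05 ± 0.10 and was higher in 3 of 6 lines. Xbp1, whose mRNA is spliced by IRE1 into the form for an active transcription factor, had overlapping groups, from 9635.7 to 12613.1 over the 12 arrays at 1437223_s_at. Its mean response was -0.03 ± 0.09 there and -0.18 to -0.09 at its other 3 probe sets. Probe sets of this kind were not read here as a measure of spliced Xbp1.

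Without Ero1a, the 9 genes' mean responses ran from -0.55 to 0.12, and the median of all 10 was -0.03, against -0.04 for all genes tested. Over all 20 tested probe sets of these 9 genes, the differences between triCH1 and control lines lay between -0.21 and 0.25 in hypoxia (smallest adjusted p = 0.782) and between -0.26 and 0.19 in normoxia (smallest adjusted p = 0.879). Of all probe sets, 0.00529% were called between the line types in normoxia. Ero1a also had the widest ratio between lines: averaged over both oxygen levels, its highest line (flox1) was 2.26-fold above its lowest (triCH1flox2_2), while the other ratios ran from 1.14 for Hspa5 to 1.52 for Dnajb9. The Ero1a ratio spans the line types. Its averages were 4772 to 5310 in control lines and 2352 to 3446 in triCH1 lines. For Dnajb9 they were 2373 to 3216 in control lines and 2120 to 2934 in triCH1 lines.

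After group means were removed, the log2 signals of Hsp90b1 and Dnajb9 had a Pearson correlation of 0.82 over 12 arrays, Dnajb9 and Sdf2l1 of 0.73, and Canx and Pdia4 of 0.70. Calr had -0.86 with Dnajb9 and -0.76 with Hsp90b1, and 0.67 with Xbp1. These are the highest and lowest of 45 gene pairs, given as descriptions: the values share arrays and scaling, with 8 degrees of freedom. The next correlations kept the group means, so a shift with hypoxia that 2 genes share adds to them. The genes most like Ero1a over the 12 arrays were P4ha2, a collagen prolyl hydroxylase subunit (r = 0.989), Ccng2, a cyclin (0.98), Ier3 (0.977), Mxi1, a partner of Max (0.976), and Pfkfb3, a glycolytic regulator (0.972). Their mean hypoxia responses ran from 0.98 (Ier3) to 2.63 (Pfkfb3). Those most like Hspa5 were Fbxw7 (0.938), Slc25a13 (0.903), Cbx5 (0.873), Mis18a (0.871) and Cnbp (0.85). By ranks (Spearman), correlations ran from 0.909 to 0.993 for the genes like Ero1a. For those like Hspa5 they ran from 0.615 (Mis18a) to 0.902 (Fbxw7). Both sets were picked as the highest among all tested probe sets with 1 symbol, so they are descriptions only.

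Few other genes of the ER folding machinery were called in the mean response, in lists that leave out the 10 genes. Among 17 tested ER chaperones and cochaperones limma called 0 higher and 1 lower (median -0.01), where the background was 1.63% of genes called higher and 0.368% lower. Of 16 other disulfide enzymes 0 were called (median 0.01), with 3 at an unadjusted p under 0.05. With the line block, a fit that called 2.73% of all genes higher, Tmx4 was called (0.47, adjusted p = 0.0444). Among these enzymes is Ero1b, the paralog of Ero1a, named after its value of -0.61 ± 0.25 (adjusted p = 0.354) was seen. Of 9 calnexin cycle enzymes 0 were called (median -0.18, 1 at an unadjusted p under 0.05), and of 23 translocon and N-glycosylation genes 0 (median 0, 2 at an unadjusted p under 0.05). Of 19 genes of ER-associated degradation 0 were called higher and 1 lower (median -0.15). Of 9 unfolded protein response sensors and proteases 0 were called, and 0 had an unadjusted p under 0.05 (median -0.10).

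The chaperone gene called lower was Creld2, an ER protein that rises with ER stress, at -0.51 ± 0.10 (adjusted p = 0.0164). Its signals were 2356.5, 2464.2 and 2596.5 in triCH1 hypoxia, against 4023.9, 3392.8 and 3293.2 in triCH1 normoxia, and 2061.3, 2503 and 1949 in control hypoxia, against 3164.7, 3093 and 2872.3 in control normoxia. Like Sdf2l1, it was lower in 6 of 6 lines, as were 8.01% of all genes tested, with the groups apart in both line types. The share of genes with hypoxia wholly below normoxia was 6.71% in triCH1 lines and 7.4% in control lines. The degradation gene was Syvn1, the ubiquitin ligase also called HRD1, at -0.60 ± 0.13 (adjusted p = 0.025), although its second probe set gave -0.39 (adjusted p = 0.298). Both calls were lost on some omissions, Creld2 on 8 of 18 and Syvn1 on 12 of 18, with the sign kept throughout (-0.56 to -0.44 and -0.69 to -0.51). With each array centred on its median, Syvn1 had an adjusted p of 0.0553.

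Of 14 tested ATF4 and CHOP branch genes 7 were called higher and 0 lower in the mean response (median 0.51). The background in that comparison was 1.63% of genes called higher and 0.368% lower. In triCH1 lines 2 were called (background 0.716% of genes called higher) and in control lines 3 (0.925%). With the line block 8 were called in the mean response (background 2.73% of genes called higher), Nupr1 being added (0.54, adjusted p = 0.00207, against 0.127 without the block), and 4 in triCH1 lines (background 1.05%). The 4 with the smallest p were Vldlr, a lipoprotein receptor (2.36, adjusted p = 1.92e-06), Ddit4, an inhibitor of mTOR signalling (1.19, adjusted p = 0.00396), Chac1, a glutathione-degrading enzyme (0.82, adjusted p = 0.00852), and Trib3, a pseudokinase (0.81, adjusted p = 0.019). Vldlr and Ddit4 are HIF targets as well as ATF4 targets. The other 3, named after their values were seen, were Ddit3 (0.60 ± 0.14, adjusted p = 0.0394), Ppp1r15a, the phosphatase subunit GADD34 (0.55, adjusted p = 0.048), and Atf4 (0.45 ± 0.10, adjusted p = 0.0409).

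Ddit3 signals were 1847.8, 1177 and 1707.4 in triCH1 hypoxia, against 985.7, 1044.9 and 735.6 in triCH1 normoxia, and 1211.5, 1258.5 and 1180.5 in control hypoxia, against 980.1, 846.1 and 833.9 in control normoxia. Its groups did not overlap in either line type, and the response by line ran from 0.17 in triCH1flox1 to 1.19 in triCH1flox2_2. Of all genes tested, 5.49% in triCH1 lines and 5.16% in control lines had hypoxia wholly above normoxia. The count of 7 was unsteady: it ranged from 2 to 7 over the omissions, with 2 left without line flox2_1, without triCH1flox2_1 or without triCH1flox2_2, and was 4 with no filter on low signals or no variance trend, where Ddit3, Ppp1r15a and Atf4 were not called. With each array centred on its median the count was 6, and Atf4 was not called (adjusted p = 0.0712). At the brightest probe set of each gene, only Vldlr and Ddit4 kept their calls under each of the 18 omissions. The other probe set of Trib3 had a larger mean response in the main fit, 1.34 (adjusted p = 1.11e-05). That of Atf4 gave 0.46 and was not called (adjusted p = 0.0503). Neither was followed over the omissions. In the main fit, 14 of 15 HIF targets listed for scale were called higher, with a median of 2.00 (background 1.63% of genes). Ero1a at 1.52 lay within their range of 0.59 to 4.42. The line block added Vegfa (0.88, adjusted p = 2e-04, against 0.0746 without it).

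**Figure D4:**
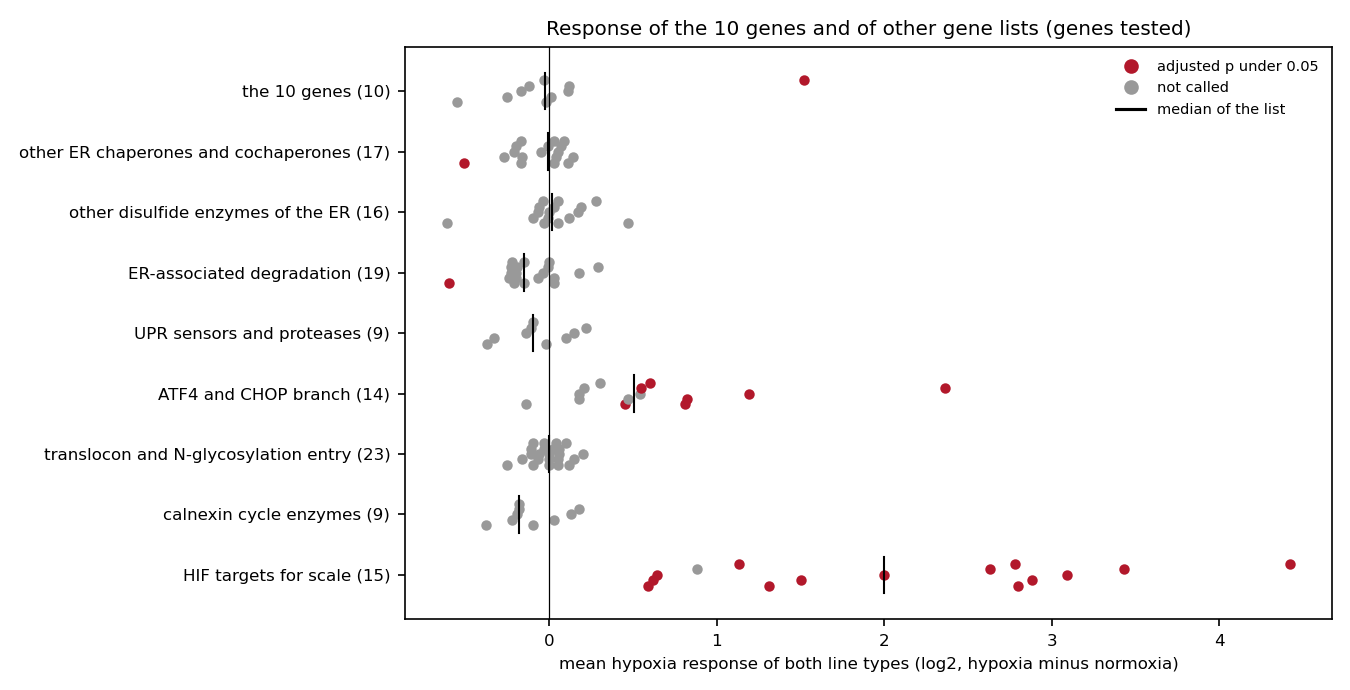
Mean hypoxia response of both line types (x axis, log2, hypoxia minus normoxia) of each tested gene of the 10 genes and of 8 other gene lists, with the number tested in brackets on the y axis. Red points had an adjusted p under 0.05, grey points did not, and black bars are list medians. The folding lists centre within 0.2 of 0, the ATF4 and CHOP branch at 0.51 and the HIF targets at 2.00, and Ero1a is the red point of the top row.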

How the data were processed

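RNA of 12 fibroblast cultures was measured on 12 Affymetrix Mouse430_2 arrays. The deposited table gives 1 signal per probe set, an intensity on the linear scale. Per the labels, the authors computed these intensities with the Statistical algorithm of Affymetrix and a scaling target of 500. The mean of each array without its lowest and highest 2% was 500, and no 2 arrays were identical (pairwise r of log2 signals 0.93 to 0.976). The software version is not given in the sources used here. Of 45101 probe sets, 64 manufacturer's controls were left out. In the platform annotation 34945 carried exactly 1 gene symbol, 932 several and 9160 none listed, and none of the 24 described here carried several.

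From these values, log2(signal + 20) was tested where the mean signal was at least 100 (18903 probe sets, 10059 genes). The model held a mean for each group, leaving 8 residual degrees of freedom, and was fitted in limma 3.58.1 (R 4.3.3) with lmFit and trended eBayes, two-sided, for 6 contrasts. It was tested on simulated data with known changes in control hypoxia only, independent noise for each array and no line effects. The other contrasts and the line blocks were not tested in that way. Line names pair the hypoxia and normoxia arrays. The deviations of a pair from their group means correlated at 0.58 in triCH1flox2_1, 0.54 in triCH1flox1, 0.35 in triCH1flox2_2, 0.28 in flox2_1, 0.47 in flox1 and -0.02 in flox2_2. The fit with this block is given where it changes a call in the mean response.

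The members and gene lists were chosen with earlier results of these data known. A gene is given by its brightest probe set unless another is named. All members were named, as were list genes called in a contrast (the 4 with the smallest p where more than 4 were called) and the 5 genes most correlated with Ero1a and with Hspa5. Sequences are RefSeq's, build GRCm38.p6. Alternatives were pseudocounts of 1 and 100, no filter, a filter at 200, quantile normalization, median centring, no variance trend, robust eBayes, only the arrays of a contrast, line blocks, the floxed gene as a covariate, 1 value per gene, and leaving out arrays and lines in turn. For the ATF4 and CHOP branch, Creld2 and Syvn1 these were applied after seeing the data.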

Additional observations from a re-analysis of the deposited data

How the results depend on the processing

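Ero1a (1419029_at) kept its call in both line types and in the mean response under every alternative tried, with mean responses of 1.45 to 1.60 over 18 omissions of an array or a line. The count of called probe sets of the 10 genes was 3 in triCH1 and in control lines under each alternative except 1 value per gene, which replaces the 3 probe sets by 1 and gave 1 in each. With lines as a replicate block, the mean response had 4 called probe sets, the added one being Sdf2l1 (adjusted p = 0.0136), and the block changed no other call of the 10 genes. Between triCH1 and control lines in hypoxia the count was 1 with the floxed gene as a covariate, 1 with 1 value per gene, and 0 to 3 over omissions, with 3 without line triCH1flox1. Over all features the same fits called 129 probe sets, 20 genes and 276 probe sets, against 14 probe sets in the fit reported. The ATF4 and CHOP branch count was 4 with no filter, 4 with no variance trend, 6 with median centring and 2 to 7 over omissions. The causes of these differences were not tested.

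Signs that turned belong to responses near 0 that were not called. Quantile normalization gave -0.02 for Hsp90b1 and -0.08 for Xbp1 in control lines, and -0.06 in triCH1 lines and -0.10 in the mean response for Hspa5. Median centring gave 0.03 for Hspa5 and 0.01 for Canx in control lines. With 1 value per gene, Xbp1 was -0.09 in control lines, Hspa5 -0.10 in triCH1 lines and -0.12 in the mean response, and Canx 0.01 in the mean response. Over omissions, triCH1 responses spanned -0.20 to 0.11 for Dnajb9, -0.07 to 0.12 for Hspa5 and -0.21 to 0.09 for Pdia4. Control responses spanned -0.12 to 0.02 for Canx, -0.16 to 0.23 for Hsp90b1, -0.02 to 0.03 for Hspa5 and -0.09 to 0.10 for Xbp1. Mean responses spanned -0.07 to 0.06 for Canx, -0.04 to 0.05 for Hspa5 and -0.08 to 0.01 for Xbp1. For Sdf2l1 the difference in response spanned -0.28 to 0.11 and triCH1 against control in hypoxia -0.10 to 0.28. Signals of at least 100 limit what can be tested, and 3 lines per type allow no exact p under 0.1.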

Other observations

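The full ERSE was in the promoter windows of 37 genes, and 33 of these were not among the 10 genes described. Of the 33, 16 had a probe set with 1 symbol and 9 were tested, a list made after results of these data were known. In the mean hypoxia response 8 of the 9 had a negative value, with a median of -0.40, against -0.04 for all genes tested. Creld2 and Syvn1, both already named above, were the 2 called lower, where 0.368% of all genes were called lower, and 0 were called higher. The 4 members with an ERSE had mean responses of 0.01 (Hspa5), 0.12 (Hsp90b1), -0.25 (Calr) and -0.02 (Canx). No test was made of this list or of its difference from the 4 members.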
